A study of Mus musculus with 60 samples.

Results

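The kidney transcriptome at dusk was compared with that at dawn in control mice, taking the 5 control samples labelled ZT12 and the 5 labelled ZT0, which are 10 of the 60 samples of the series. Zeitgeber time (ZT) counts hours from lights on, so ZT0 is the start of the rest phase of these nocturnal animals and ZT12 the start of their active phase. The series holds 2 genotypes at 6 time points with 5 mice in each of 12 groups, and RNA was sequenced from each mouse. Both groups compared here were male Bmal1lox/lox mice on a C57BL/6J background, without the Pax8-rtTA and LC-1 Cre transgenes that their cKOt littermates carry. Like the cKOt mice, the controls had received doxycycline (DOX) with sucrose in the drinking water for 2 weeks from 8 weeks of age, and kidneys were collected 4 weeks later. All mice lived in a cycle of 12 h light and 12 h dark with free access to chow and water, so that time of day cannot be told apart from lighting and feeding state. The Pax8 promoter drives the deletion in tubular cells of the cKOt mice only, and cKOt mice enter solely as the nearest comparison. The labels name the tissue as renal tubule, whereas the methods of the study describe a piece of the left kidney. Markers of podocytes (Nphs1, Podxl) and of endothelium (Pecam1, Kdr) were measured in all 10 samples beside those of every tubular segment, with summed podocyte markers at 339.6 to 404 CPM at ZT0 and 279.6 to 331 CPM at ZT12.

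The circadian clock of mammalian cells is a feedback loop in transcription. BMAL1 (gene symbol Arntl) pairs with CLOCK or NPAS2 and binds E-box sequences, which drives the Per, Cry and Nr1d genes whose products repress the loop. The PAR bZIP factors DBP, TEF and HLF bind D-boxes, NFIL3 competes with them there, and the ROR and REV-ERB (Nr1d) receptors meet at RORE sequences upstream of Arntl and its partners. In the kidney this clock runs alongside daily rhythms of feeding, body temperature and corticosterone, and excretion of water and electrolytes varies with time of day.

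The total of counts on genes ranged from 17834053 to 20175513 per mouse (median 18199560.5). Levels are given as CPM, the count of a gene relative to a TMM-scaled library size, and fold changes are log2 ratios of ZT12 over ZT0 from edgeR's quasi-likelihood test with 2 factors of unwanted variation (RUVs) as covariates and Benjamini-Hochberg adjustment over 15546 genes at a threshold of 0.05. Means of a group are given with the SD of its 5 mice. More animals had been collected than were deposited, and those kept were picked on RNA quality and closeness to their replicates, so the spread between mice may be smaller than among all animals. 3 libraries stood apart. The ZT12 mouse 4 lay at -0.292 on the first RUVs factor, against -0.0654 to 0.128 in the other 9 mice. For the 17 clock genes that passed the test, ZT0 mouse 5 was the ZT0 value nearest to the ZT12 group for 11 genes, and ZT12 mouse 3 was the ZT12 value nearest to the ZT0 group for 12 genes. Some counts and the changes of some clock genes are therefore also given without these 2 mice, an alternative chosen after the data had been seen. Because they were picked for lying nearest to the other group, leaving them out tends to enlarge clock gene changes. Without ZT12 mouse 4, 2680 genes passed the test described next. Among the mice compared here, ZT0 mouse 5 and ZT12 mouse 4 were also the only members of their batches, as the sample sheet of the study names them.

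At this resolution 3040 of 15546 genes (19.6%) differed between dusk and dawn. Of these, 1566 (10.1%) were higher at ZT12 and 1474 (9.48%) were lower, and the median log2 change over all genes was 0.0027. Most changes were small. The median size among the called genes was 0.33 on the log2 scale (1.26-fold), 687 genes changed at least 1.5-fold, 223 at least 2-fold and 13 rose and 17 fell at least 4-fold. The 5 values of one group lay wholly apart from the 5 of the other for 1556 genes (10.0%), 814 (5.24%) with ZT12 above and 742 (4.77%) with ZT12 below, and 1401 of the called genes were among them. Without ZT0 mouse 5 and ZT12 mouse 3, 2674 genes passed. Within the 4 batches that hold a mouse of each group, 1381 did.

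The other control time points place the 2 groups in the daily cycle. Of the 1566 genes higher at dusk, 1001 had their highest mean of the 6 control time points at ZT12 itself, 229 at ZT4, 219 at ZT8, 108 at ZT16 and 9 at ZT20, and 861 had their lowest mean at ZT0. Of the 1474 genes lower at dusk, 729 were highest at ZT0, 391 at ZT20, 210 at ZT16, 121 at ZT4 and 23 at ZT8, and 938 were lowest at ZT12. These positions use the tested groups themselves and are a description.

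**Figure D1:**
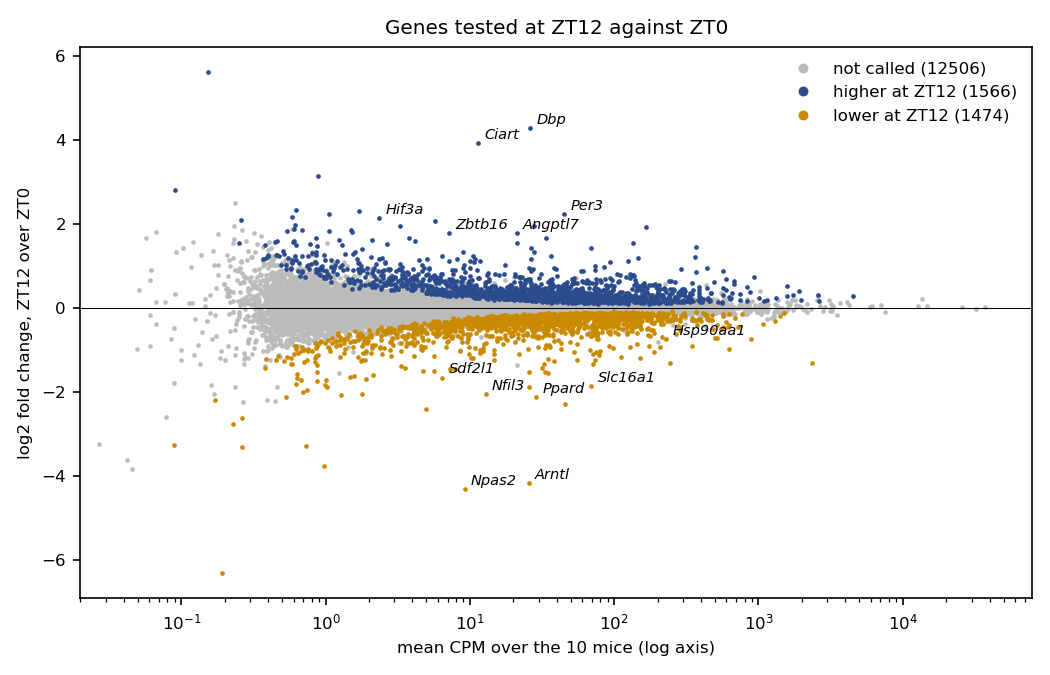
Log2 fold change of ZT12 over ZT0 against the mean CPM of the 10 control mice (log axis), with 1 point for each gene tested. Genes that passed the test are blue (1566, higher at ZT12) or orange (1474, lower at ZT12), and among called genes of at least 2 CPM the largest changes are those of Dbp and Ciart upward and of Arntl and Npas2 downward.

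Among called genes with a mean of at least 2 CPM, the 2 largest increases (Dbp and Ciart) and the 2 largest decreases (Npas2 and Arntl) were all in the clock. All 5 measured clock activators passed the test, 3 lower and 2 higher at ZT12. Among the 10 repressors 8 passed, each of them higher at ZT12, and all 4 genes of the group of PAR bZIP factors and Nfil3 passed, 3 higher and 1 lower. The median log2 change was -0.63 for activators, 1.37 for repressors and 1.10 for the PAR bZIP group. These counts stand beside 19.6% of all genes and come from well-known clock genes that earlier results of these data had already shown.

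Promoter sequences of genes from this loop are shown because the letters read by its factors stand in them. They are RefSeq promoter stretches upstream of the annotated start on GRCm38.p6, 5′ to 3′ along the gene, with the E-box CACGTG, the D-box word TTATGTAA or the RORE word TAGGTCA in capitals, the last of them read on the opposite strand.
Ciart, chr3:95882229-95882384, minus strand: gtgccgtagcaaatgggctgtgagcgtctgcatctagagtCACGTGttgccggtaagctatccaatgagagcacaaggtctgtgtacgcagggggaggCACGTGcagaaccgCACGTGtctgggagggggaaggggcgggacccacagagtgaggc
Per1, chr11:69098743-69098828, plus strand: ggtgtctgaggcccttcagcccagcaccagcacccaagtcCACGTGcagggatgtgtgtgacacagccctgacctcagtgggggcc
Tef, chr15:81802506-81802591, plus strand: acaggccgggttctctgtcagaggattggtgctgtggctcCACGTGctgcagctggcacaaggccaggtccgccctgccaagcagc
Per3, chr4:151044776-151044910, minus strand: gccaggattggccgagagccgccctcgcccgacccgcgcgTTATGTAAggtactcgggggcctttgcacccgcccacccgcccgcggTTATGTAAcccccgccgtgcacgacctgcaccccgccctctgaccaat
Nfil3, chr13:52981040-52981091, minus strand: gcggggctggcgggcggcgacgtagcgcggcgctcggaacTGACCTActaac

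The window searched ran from 250 bases before to 50 bases after each start, and 11416 of the symbols tested had at least 1 such window. Both strands were searched, and the windows of one gene were counted together. The E-box stood in 4 of the 8 clock repressors with a window (50.0%) against 11.4% of all 11416, and in 13.3% of the genes higher and 12.5% of the genes lower at ZT12. The D-box words TTATGTAA and TTACGTAA stood in 0.92% of all genes, in 1.42% of those higher and in 0.531% of those lower at ZT12. The RORE word TAGGTCA stood in 2.37% of all genes, in 1.92% of those higher and in 2.83% of those lower at ZT12. Among genes called with a change of at least 2-fold, it stood in 11.4% of the 70 with a window that fell and in 2.53% of the 79 that rose. For the E-box these 2-fold shares were 12.9% and 10.1%, and for the D-box words 1.43% and 3.8%. Ciart held 3 E-boxes, Per3 held 2 D-boxes, and a RORE word lay 30 bases after a listed start of Arntl. A match describes these letters only, not binding.

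Arntl (ENSMUSG00000055116, chr7:113207465-113314126, plus strand), which encodes BMAL1 and is floxed but, without Cre, not deleted in these mice, had 57.1, 47.6, 52.3, 53.8 and 31.3 CPM at ZT0 and 2.32, 1.93, 5.51, 2.12 and 1.97 CPM at ZT12. The groups did not overlap, and the highest ZT12 value, 5.51 CPM in mouse 3, stood above the other 4, which lay between 1.93 and 2.32 CPM. The log2 change was -4.16 ± 0.25 (SE), adjusted p = 5.00e-19. Npas2, which can take the place of CLOCK beside BMAL1, had 25.2, 14.9, 21.4, 17.7 and 8.63 CPM at ZT0 and 0.755, 1.02, 1.29, 0.517 and 0.731 CPM at ZT12 (-4.31 ± 0.32 (SE), adjusted p = 1.96e-15). All 5 ZT12 values were below every ZT0 value, and the lowest ZT0 value was that of mouse 5. Clock itself moved far less, from 126 ± 16.8 CPM at ZT0 to 86.3 ± 11.2 CPM at ZT12 (SD, n = 5 each), with a log2 change of -0.63 ± 0.09 (SE), adjusted p = 1.42e-06. Rora, an activating receptor of the RORE, was higher at dusk, with 62.3, 75.3, 88.6, 73.3 and 63.2 CPM at ZT0 and 121, 77, 118, 105 and 104 CPM at ZT12 (0.48 ± 0.11 (SE), adjusted p = 6.24e-04), and ZT12 mouse 2 lay inside the ZT0 range.

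Dbp (chr7:45705088-45710203, plus strand), a PAR bZIP factor driven by the clock's E-boxes, showed the largest increase, with 2.1, 2.12, 1.97, 2.32 and 5.56 CPM at ZT0 and 65.9, 51.3, 31.5, 47.8 and 51.4 CPM at ZT12. Every ZT12 mouse was above every ZT0 mouse, and ZT0 mouse 5 was above the other 4 (1.97 to 2.32 CPM), while ZT12 mouse 3 was the lowest of its group. Its log2 change was 4.27 ± 0.22 (SE), adjusted p = 6.59e-22, and 4.79 without these 2 mice. Tef and Hlf, its relatives, rose from 199 ± 29 CPM at ZT0 to 544 ± 50.5 CPM at ZT12 and from 101 ± 12 CPM at ZT0 to 173 ± 16 CPM at ZT12 (SD, n = 5 each), by 1.45 (adjusted p = 6.19e-18) and 0.75, adjusted p = 9.89e-11. Nfil3, the competitor at D-boxes, moved the other way, with 21, 15.1, 19.6, 26.4 and 20.1 CPM at ZT0 and 2.03, 1.36, 14.5, 6.32 and 1.97 CPM at ZT12. Its groups did not overlap, but ZT12 mouse 3 at 14.5 CPM came close to the lowest ZT0 value of 15.1 CPM, and the log2 change of -2.05 ± 0.33 (SE), adjusted p = 4.17e-06 became -2.91 without ZT0 mouse 5 and ZT12 mouse 3.

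Among the repressors, Ciart, an inhibitor of CLOCK and BMAL1, had 1.13, 1.09, 1.35, 0.939 and 2.61 CPM at ZT0 and 28.1, 23.7, 12.9, 23.5 and 19 CPM at ZT12 (3.92 ± 0.30 (SE), adjusted p = 8.02e-15), with separate groups. Per3 had 11.4, 12.4, 14.7, 17.2 and 24.2 CPM at ZT0 and 77.2, 71.4, 66, 78 and 78.3 CPM at ZT12 (2.23 ± 0.15 (SE), adjusted p = 9.67e-17), again without overlap. Per1, a repressor that also responds acutely to hormones, had 12, 10.6, 14.3, 7.62 and 15.8 CPM at ZT0 and 49.8, 46, 48.5, 37.6 and 34.4 CPM at ZT12, and the log2 change was 1.95 ± 0.22 (SE), adjusted p = 1.54e-09. Per2 rose by 1.42 (adjusted p = 7.34e-10), with its highest control mean at ZT16, and Cry2 by 1.32 (adjusted p = 6.59e-22), with all 5 ZT12 values between 37.2 and 42.8 CPM and all ZT0 values between 14.4 and 18.6 CPM. Nr1d2 (REV-ERBβ) had 42.4, 59.2, 72.8, 68.4 and 98.5 CPM at ZT0 and 266, 257, 235, 301 and 263 CPM at ZT12 and rose by 1.92 (adjusted p = 4.63e-16). Bhlhe41 rose by 1.14 (adjusted p = 1.67e-04), with ZT0 mouse 5 inside the ZT12 range.

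The amplitude of a 2-point comparison depends on where the peak falls, and REV-ERBα shows this. Nr1d1 had 12.8, 11.9, 22.9, 17.3 and 18.3 CPM at ZT0 and 32.9, 29.8, 13.2, 17.6 and 24.6 CPM at ZT12, values that overlapped, and changed by 0.60 ± 0.21 (SE), adjusted p = 0.0376. Its control mean reached 74.5 ± 7.79 CPM (SD, n = 5) at ZT4, so both ends lay on the flanks of its peak, and it lost its call when any of 6 mice was left out in turn. Within the 4 shared batches, which hold 8 of these mice, its adjusted p was 0.111. Cry1 and Bhlhe40 did not pass. Cry1 had 14.5, 13.3, 11.4, 9.34 and 8.52 CPM at ZT0 and 10.5, 13.1, 15.9, 14.5 and 13 CPM at ZT12 (0.22 ± 0.11 (SE), adjusted p = 0.164), and passed without ZT0 mouse 1 (0.33, adjusted p = 0.0385). Its change was 0.07 without ZT0 mouse 5 and ZT12 mouse 3 (adjusted p = 0.767) and 0.11 within the shared batches (adjusted p = 0.728). Bhlhe40 differed by -0.05 ± 0.15 (SE), adjusted p = 0.856. Its control mean was highest at ZT16, and that of Cry1 at ZT20.

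**Figure D2:**
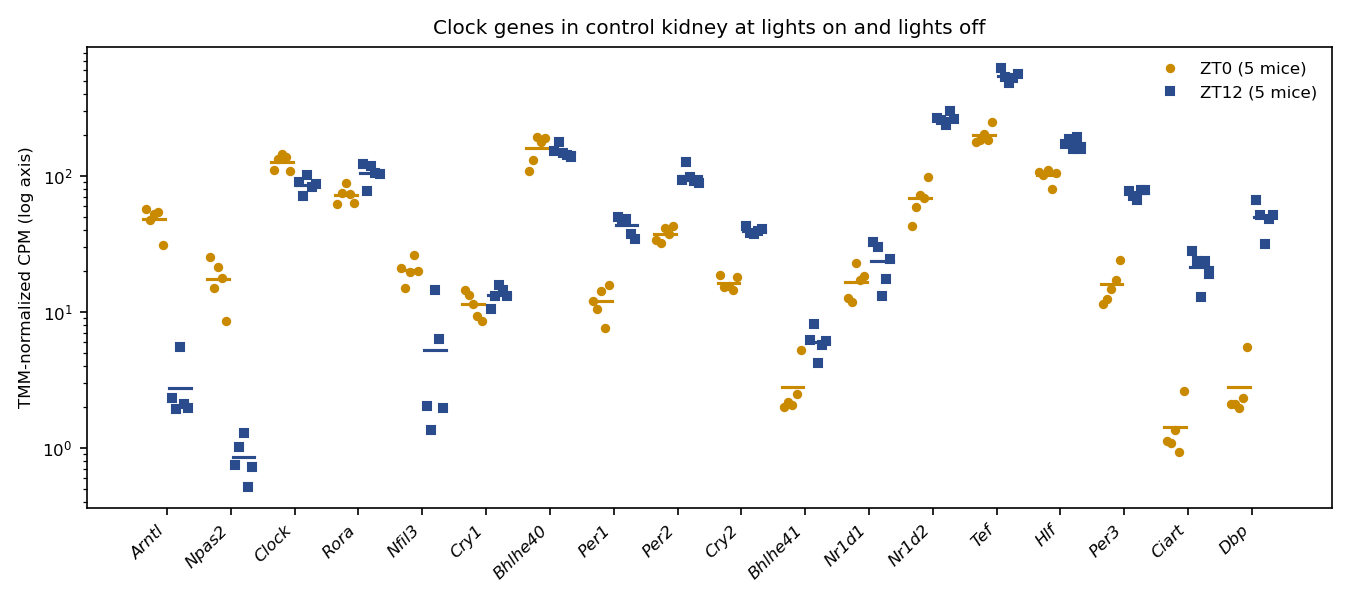
TMM-normalized CPM (log axis) of 18 clock genes in each control mouse at ZT0 (orange circles) and ZT12 (blue squares), with the mean of each 5 as a bar. Arntl, Npas2 and Nfil3 lie lower at ZT12 and Per3, Ciart and Dbp higher, while Cry1 and Bhlhe40 overlap.

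Of 12 regulators of clock protein stability and partners of the loop 3 passed (25%, near the 19.6% of all genes), and those 3 were higher at ZT12, while the median log2 change of the list was 0.04. Without ZT0 mouse 3, ZT12 mouse 2 or ZT12 mouse 5, 1 was lower. Usp2, a deubiquitinase, had 83.2, 97.1, 94.5, 74.5 and 99.3 CPM at ZT0 and 194, 221, 189.6, 213 and 197 CPM at ZT12 and rose by 1.18 ± 0.10 (SE), adjusted p = 5.63e-14 without overlap. The other two were the F-box proteins Fbxl21 (0.62, adjusted p = 0.00142) and Btrc (0.26, adjusted p = 0.00534), which act in ubiquitin ligases, and Btrc was not called within batches (adjusted p = 0.0878).

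Outside the clock, the largest increases among called genes of at least 2 CPM with separate groups were those of Hif3a, Mthfd1l and Angptl7. Hif3a, a hypoxia-inducible factor subunit, had 0.7, 0.88, 0.9, 0.829 and 1.1 CPM at ZT0 and 3.31, 3.62, 6.18, 3.85 and 2.25 CPM at ZT12 (2.14 ± 0.27 (SE), adjusted p = 2.66e-08). The groups did not overlap. Zbtb16 (PLZF), a glucocorticoid-induced zinc finger protein, had 2.85, 5.7, 3.49, 2.26 and 2.67 CPM at ZT0 and 17.9, 8.38, 12.9, 8.73 and 7.03 CPM at ZT12 and rose by 1.77 ± 0.39 (SE), adjusted p = 5.29e-04. Angptl7, a secreted angiopoietin-like protein, had 6.62, 11, 15.8, 5.63 and 8.92 CPM at ZT0 and 26.9, 30.6, 51.9, 32.5 and 20.9 CPM at ZT12 (1.78 ± 0.24 (SE), adjusted p = 1.26e-07), with every ZT12 value above every ZT0 value. Upp2, a uridine phosphorylase, and Mthfd1l, a mitochondrial enzyme of folate metabolism, rose by 1.66 (adjusted p = 1.96e-15) and by 1.94 (adjusted p = 1.07e-11). The chemokine Cxcl1 rose by 1.59 (adjusted p = 0.00259) from ZT0 values of 0.862 to 2.90 CPM to ZT12 values of 3.48 to 10.7 CPM. Cyp2a5, listed at 25.2 to 131 CPM at ZT0 and 147 to 249 CPM at ZT12, rose by 1.55 (adjusted p = 3.00e-06), but shares near-identical sequence with Cyp2a4, so that the assignment of its reads is uncertain.

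Large decreases outside the clock by the same limits included those of Ppard, Dtx4 and Slc16a1. Ppard, a nuclear receptor for fatty acids, had 73.4, 47, 45.4, 52.3 and 20.5 CPM at ZT0 and 10.0, 9.51, 11.3, 7.92 and 9.9 CPM at ZT12 and fell by 2.12 on the log2 scale (adjusted p = 9.89e-11). ZT0 mouse 5 was the lowest of its group and still above every ZT12 mouse. Slc16a1 (MCT1), a transporter of lactate and ketone bodies, had 98.6, 116, 130.3, 105 and 89.6 CPM at ZT0 and 26, 32.8, 37.3, 30.3 and 26.5 CPM at ZT12 (-1.86 ± 0.16 (SE), adjusted p = 6.46e-13), without overlap. Dtx4, an E3 ubiquitin ligase, had 40.2, 35.8, 45.2, 42 and 36.6 CPM at ZT0 and 7.78, 6.68, 20.6, 10.2 and 9.73 CPM at ZT12 (-1.89 ± 0.18 (SE), adjusted p = 1.64e-11), with ZT12 mouse 3 (20.6 CPM) above the other 4 (6.68 to 10.2 CPM). Stra6l, a retinol-binding protein 4 receptor, and Ypel2 changed by -1.53 (adjusted p = 4.85e-09) and by -1.52 (adjusted p = 3.67e-12). Hist1h2be, a replication-dependent histone whose copies share sequence, fell from 3.12 ± 0.847 CPM at ZT0 to 1.12 ± 0.251 CPM at ZT12 (-1.59, adjusted p = 1.48e-06) and is uncertain for that reason.

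The heat shock list holds chaperones and cochaperones of the cytosol, the mitochondrial chaperonins Hspd1 and Hspe1, and their regulator Hsf1. Of its 20 genes 13 fell and the other 7 did not pass the test, and the log2 changes of all 20 were between -0.75 and -0.14 (median -0.39). Of 32 genes of folding and the unfolded protein response in the endoplasmic reticulum (ER) 17 fell and 2 rose (median -0.31), against 9.48% lower and 10.1% higher of all genes. Hsp90aa1, the inducible HSP90, had 262, 296, 349, 299 and 224 CPM at ZT0 and 146, 246, 164, 167 and 149.9 CPM at ZT12 (-0.75 ± 0.12 (SE), adjusted p = 4.64e-06), and only ZT12 mouse 2 reached the ZT0 range. Fkbp4, an HSP90 cochaperone of steroid receptors, had 239.9, 216, 228, 229 and 196 CPM at ZT0 and 149, 172, 156, 123 and 141 CPM at ZT12 (-0.53 ± 0.07 (SE), adjusted p = 5.35e-08), and Chordc1 fell in the same direction (-0.59, adjusted p = 6.75e-06), both without overlap. Sdf2l1, an ER chaperone component, had 10.3, 8.6, 10.5, 11.9 and 7.82 CPM at ZT0 and 3.31, 4.36, 2.92, 2.7 and 2.08 CPM at ZT12 (-1.66 ± 0.24 (SE), adjusted p = 3.79e-07), and Hyou1, an ER chaperone of the HSP70 family, had 155, 154, 192, 185 and 169 CPM at ZT0 and 80.1, 112, 94.8, 77.5 and 75 CPM at ZT12 (-0.94 ± 0.13 (SE), adjusted p = 1.75e-07). Pdia6, a disulfide isomerase, moved by -0.64 (adjusted p = 1.17e-08). Herpud1, which acts in ER-associated degradation, and Sec62, a translocation component, were the 2 that rose, by 0.41 (adjusted p = 4.68e-04) and 0.14, adjusted p = 0.00516, the latter not called within batches (adjusted p = 0.143).

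Promoter stretches of called members of these groups are shown with the words searched for HSF1 and for the ER stress response in capitals, on GRCm38.p6, upstream of the start. For heat shock genes the words are GAANNTTC and TTCNNGAA, which can overlap, and for ER genes the ER stress response element, on either strand. The Hspe1 stretch is also the promoter of the divergent gene Hspd1, on the other strand.
Fkbp4, chr6:128438760-128438847, minus strand: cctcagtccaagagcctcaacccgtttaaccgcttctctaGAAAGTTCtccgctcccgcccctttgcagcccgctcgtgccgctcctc
Hspe1, chr1:55088019-55088116, plus strand: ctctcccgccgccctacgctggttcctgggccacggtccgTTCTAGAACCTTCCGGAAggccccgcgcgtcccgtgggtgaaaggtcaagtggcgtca
Pdia6, chr12:17266451-17266549, plus strand: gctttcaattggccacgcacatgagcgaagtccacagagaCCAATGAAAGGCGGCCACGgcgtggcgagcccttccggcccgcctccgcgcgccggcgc
Calr, chr8:84847035-84847133, minus strand: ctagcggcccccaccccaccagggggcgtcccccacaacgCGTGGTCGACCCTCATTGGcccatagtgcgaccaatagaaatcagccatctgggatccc
Hsp90b1, chr10:86705493-86705694, minus strand: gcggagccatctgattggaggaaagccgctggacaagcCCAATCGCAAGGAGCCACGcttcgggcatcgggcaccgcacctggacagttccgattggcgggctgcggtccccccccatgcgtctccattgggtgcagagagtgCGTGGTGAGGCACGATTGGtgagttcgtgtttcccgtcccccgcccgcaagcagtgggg

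The heat shock words stood in 10 of 16 heat shock genes with a window (62.5%) against 14.3% of all genes, and in 15.0% of the genes lower at ZT12. The ER stress word stood in 8 of 27 ER genes (29.6%) against 0.175% of all genes, in 0.973% of the genes lower and in 0.0835% of those higher at ZT12. These shares describe the lists, which hold known targets of both responses. Of 2 cold-inducible RNA-binding proteins, both rose, against 10.1% higher of all genes. Cirbp rose by 0.73 (adjusted p = 5.16e-04) and Rbm3 by 0.30 (adjusted p = 0.0371), and for both the groups overlapped. Rbm3 lost its call when any of 7 mice was left out.

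Of 24 cholesterol synthesis and uptake genes 16 fell and 1 rose (median -0.41), against 9.48% lower and 10.1% higher of all genes. Msmo1, a methylsterol monooxygenase, had 77.3, 78, 70.0, 84.9 and 73.8 CPM at ZT0 and 31.5, 31.1, 29.9, 41.1 and 37.7 CPM at ZT12 (-1.23 ± 0.13 (SE), adjusted p = 5.18e-10), without overlap. Srebf2, the transcription factor of this pathway, fell from 67.8 ± 9.42 CPM at ZT0 to 45.8 ± 4.28 CPM at ZT12 (SD, n = 5 each, -0.46, adjusted p = 5.29e-08), and Sc5d was the member that rose (0.17, adjusted p = 0.0312). Sc5d lost its call when any of 4 mice was left out in turn (adjusted p up to 0.131) and within batches (0.221). The range over leaving out each mouse was 15 to 18 genes lower. In fatty acid synthesis 7 of 18 genes fell (median -0.18), among them Srebf1 with 49.8, 32.1, 32.9, 51.4 and 37.3 CPM at ZT0 and 23.4, 15.3, 21.6, 12.9 and 20.8 CPM at ZT12 (-0.93 ± 0.13 (SE), adjusted p = 4.80e-07), Scd2 (-0.59, adjusted p = 2.65e-06) and Elovl5 (-0.28, adjusted p = 2.05e-05). The words TCACNCCAC of a sterol response element stood in 1 of 17 sterol genes with a window (5.88%), against 1.45% of all genes.

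Of 29 genes of fatty acid oxidation and PPARα targets 3 rose and 5 fell (median -0.09), 27.6% in all against 19.6% of all genes, and without ZT0 mouse 5 and ZT12 mouse 3 only 1 fell. Cpt1a, which admits fatty acids to mitochondria, had 479, 463, 531, 485 and 585 CPM at ZT0 and 672, 682, 632, 772 and 641 CPM at ZT12 (0.43 ± 0.07 (SE), adjusted p = 4.85e-06), without overlap, and Ppara and Fabp3 rose by 0.42 (adjusted p = 9.34e-04) and 0.46, adjusted p = 1.36e-05. Acot1, an acyl-CoA thioesterase whose reads may be shared with Acot2, had 48.8, 46.1, 46.3, 58.8 and 47.5 CPM at ZT0 and 22.1, 23.2, 16.6, 17.7 and 20.5 CPM at ZT12 (-1.22 ± 0.20 (SE), adjusted p = 7.51e-06). Cyp4a10 fell by 0.90 on the log2 scale (adjusted p = 0.0127), with an adjusted p of 0.104 without those 2 mice and 0.0571 without ZT12 mouse 3 alone, and Etfdh, with adjusted p = 0.00841, also lost its call (0.0989).

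Corticosterone is high at dusk in nocturnal rodents. Of 19 glucocorticoid-responsive genes 10 rose and 2 fell (median 0.32), against 10.1% higher and 9.48% lower of all genes, and 6 rose without ZT0 mouse 5 and ZT12 mouse 3, as also without ZT0 mouse 1. Tsc22d3 (GILZ) had 53.7, 51.8, 41.2, 44.9 and 52.8 CPM at ZT0 and 85.2, 122, 107, 89.1 and 90.8 CPM at ZT12 (1.01 ± 0.14 (SE), adjusted p = 1.50e-07), Lpin1 rose by 0.81 (adjusted p = 5.44e-06) and Arrdc2 by 0.94 (adjusted p = 1.30e-04). The 2 that fell were Cdkn1a (p21), from 8.4 ± 1.45 CPM at ZT0 to 2.8 ± 0.538 CPM at ZT12 (-1.50, adjusted p = 1.77e-05), and Pdk4, which had 32, 34.5, 38.7, 58.9 and 65.3 CPM at ZT0 and 14.2, 15, 20.2, 19.1 and 15.6 CPM at ZT12 (-1.44 ± 0.32 (SE), adjusted p = 7.55e-04), a kinase that restrains pyruvate oxidation. The hormone itself was not analysed here. Of 21 measured immediate early genes 4 rose and 3 fell (33.3% against 19.6% of all genes). Dusp1 rose by 1.08 (adjusted p = 0.00118), Ier3 by 0.75 (adjusted p = 7.51e-04) and Klf2 by 0.67 (adjusted p = 0.00127), and Ier5, Myc and Atf3 fell (-0.72, adjusted p = 3.36e-04, -1.15, adjusted p = 0.0106 and -0.80, adjusted p = 0.0441). Atf3 lost its call when any of 7 mice was left out.

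**Figure D3:**
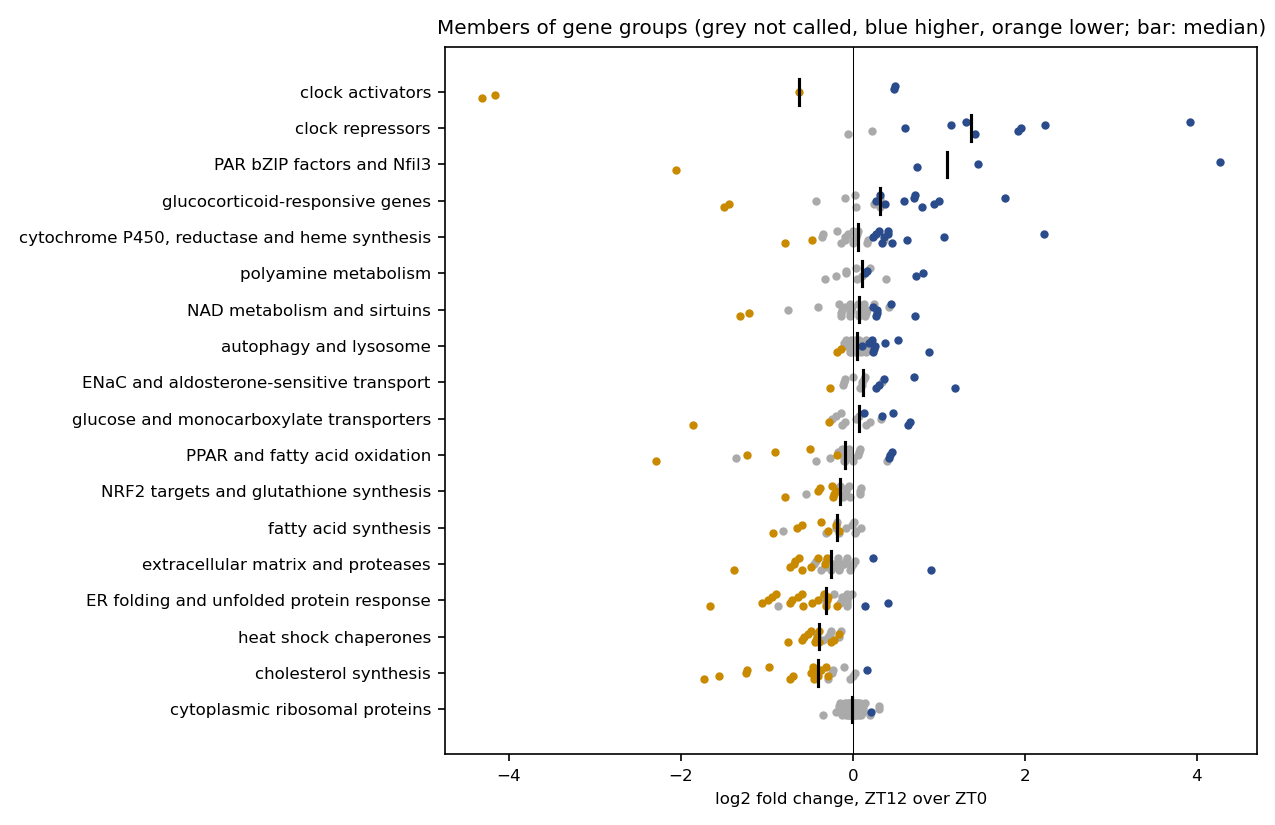
Log2 fold change of ZT12 over ZT0 for each measured member of 18 gene groups in control kidney (x axis), with 1 point a gene, grey where not called, blue where higher and orange where lower, and the group's median as a black bar. Clock groups spread widest, chaperone, ER and sterol genes lie mostly left of 0, and cytoplasmic ribosomal proteins lie around 0.

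In the aldosterone-sensitive sodium pathway 5 of 16 genes rose and 1 fell (median 0.12), against 10.1% higher and 9.48% lower of all genes, with Atp1b1 at 2305, 2384, 2163, 2058 and 2499 CPM at ZT0 and 2763, 2998, 2604, 3271 and 2824 CPM at ZT12 (0.31 ± 0.05 (SE), adjusted p = 2.57e-06), Prss8, a channel-activating protease, up by 0.36 (adjusted p = 5.89e-06), and the potassium channel gene Kcnj1 down (-0.26, adjusted p = 0.00985). The 5 that rose include Usp2, which was already given among the regulators of clock protein stability. Kcnj1, the member that fell, was not called without ZT12 mouse 1 (adjusted p = 0.0659) or within batches (0.0528). Of 17 genes of the NCC, NKCC2 and WNK pathway 1 rose (Wnk4, 0.14, adjusted p = 0.0477) and 1 fell (Bsnd, -0.24, adjusted p = 0.0139), and both calls were lost when single mice were left out. Leaving out each mouse gave 0 to 1 genes of this list higher and 0 to 3 lower. In the water pathway 4 of 14 rose, among them Aqp11 (0.30, adjusted p = 0.00128), Aqp3 (0.31, adjusted p = 0.0029) and Pde4d (0.47, adjusted p = 0.0109), and 3 fell. Without ZT12 mouse 4, and within batches, 2 rose. Avpr1a had 14.2, 10.5, 10.6, 13.4 and 9.62 CPM at ZT0 and 4.12, 3.62, 4.1, 4.42 and 4.56 CPM at ZT12 (-1.46 ± 0.15 (SE), adjusted p = 3.71e-11), and Avpr2, the V2 receptor of the collecting duct, had 21.2, 20.0, 16.4, 23.8 and 18.4 CPM at ZT0 and 15.2, 12, 13.2, 10.7 and 12.5 CPM at ZT12 (-0.56 ± 0.09 (SE), adjusted p = 4.31e-06). Neither overlapped between groups.

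Of 18 sodium, phosphate and bicarbonate genes of the proximal tubule 4 rose and 3 fell (38.9% against 19.6% of all genes), with the sodium-hydrogen exchanger Slc9a3 up by 0.36 (adjusted p = 2.54e-04), Car14 by 0.80 (adjusted p = 1.72e-06) and Slc9a3r1 by 0.21 (adjusted p = 6.10e-04), and Car2 (-0.29, adjusted p = 0.00469), Slc20a1 (-0.61, adjusted p = 0.0142) and Slc26a6 (-0.35, adjusted p = 0.0415) down. The 3 lower calls became 1 without ZT0 mouse 5 and 0 within batches, and Slc26a6 lost its call when any of 7 mice was left out in turn. Within batches 3 of the 4 higher calls remained. Slc9a3r1, whose groups overlapped, was not called there (adjusted p = 0.123). Of 28 amino acid transporters 4 rose and 6 fell (35.7%). Slc6a19, the apical neutral amino acid transporter, had 251, 242, 284, 224 and 323 CPM at ZT0 and 481, 444, 423, 561 and 476 CPM at ZT12 (0.85 ± 0.11 (SE), adjusted p = 5.10e-08), without overlap. Slc7a9 rose by 0.59 (adjusted p = 9.33e-08) and Slc7a7 by 0.40 (adjusted p = 0.00625), while Slc6a18, Slc7a8 and Slc3a2 fell by 0.46, 0.53 and 0.40 on the log2 scale. Of 17 glucose and monocarboxylate transporters 5 rose, including Slc2a9 (0.66, adjusted p = 7.90e-08), Slc5a12 (0.46, adjusted p = 9.01e-05) and Slc16a9 (0.34, adjusted p = 2.75e-04), and 2 fell, Slc16a1 and Slc16a7 (-0.28, adjusted p = 0.0231), the latter not called without ZT0 mouse 1, ZT0 mouse 3 or ZT12 mouse 2. Leaving out each mouse gave 1 to 3 lower. Of 36 organic ion and drug transporters 4 rose and 3 fell, 19.4% in all and near the share of all genes, and 2 rose within batches. Slc22a5, the carnitine transporter, rose by 0.35 (adjusted p = 0.00822) and the urate transporter Slc22a12 fell from 1501 ± 54.2 CPM at ZT0 to 1108 ± 215 CPM at ZT12 (-0.32, adjusted p = 0.00173). For mineral handling, Cyp27b1, which makes active vitamin D, had 2.42, 2.64, 8.15, 3.87 and 2.32 CPM at ZT0 and 11.6, 9.17, 3.43, 7.87 and 12.1 CPM at ZT12 (1.23 ± 0.39 (SE), adjusted p = 0.0182), with overlapping groups and a call that was lost when any of 4 mice was left out in turn and within batches (adjusted p = 0.0633). Casr was among the 4 of 16 that fell (-0.39, adjusted p = 0.00215).

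In NAD metabolism 6 of 31 genes rose and 2 fell (median 0.07), 25.8% in all and near the 19.6% of all genes. Nampt, the rate-limiting enzyme of NAD salvage, had 199, 218, 212, 210.4 and 220.2 CPM at ZT0 and 286, 292, 283, 342 and 311 CPM at ZT12 (0.44 ± 0.06 (SE), adjusted p = 1.86e-08), and Nmrk1, a nicotinamide riboside kinase, had 88.8, 75.3, 80.3, 80.7 and 116 CPM at ZT0 and 140.5, 135, 167, 202 and 129 CPM at ZT12 (0.73 ± 0.12 (SE), adjusted p = 6.67e-06). Neither overlapped. Nt5e (CD73), an ecto-nucleotidase, had 341, 405, 362, 332 and 270.1 CPM at ZT0 and 115, 174, 153, 143 and 128 CPM at ZT12 (-1.31 ± 0.13 (SE), adjusted p = 3.44e-11), and Acmsd, which draws tryptophan metabolites away from NAD synthesis, had 238, 214, 209, 217 and 164 CPM at ZT0 and 82.9, 109, 83, 110.4 and 78.2 CPM at ZT12 (-1.20 ± 0.15 (SE), adjusted p = 1.35e-08). Their ZT12 values all lay below their ZT0 values. Of 29 cytochrome P450, reductase and heme genes 11 rose and 2 fell (44.8%), and 1 fell within batches. Por, the common reductase of these enzymes, rose by 0.46 (adjusted p = 1.03e-07), Fech by 0.27 (adjusted p = 7.33e-07) and Cyp2j8, listed at or below 2.32 CPM, by 2.22 (adjusted p = 2.41e-06), and Hmox1, which breaks heme down, fell from 49.2 ± 6.88 CPM at ZT0 to 27 ± 7.95 CPM at ZT12 (-0.78, adjusted p = 0.00111). Hmox1 was also among the 7 of 19 NRF2 and glutathione genes that fell (36.8%, median -0.14), with Txnrd1 (-0.38, adjusted p = 3.47e-06) and Srxn1 (-0.41, adjusted p = 1.04e-05). In gluconeogenesis and ammoniagenesis 2 of 12 genes rose, Pck2 (0.36, adjusted p = 0.0131) and Slc37a4 (0.27, adjusted p = 0.00707), and 1 fell, the glutamine transporter Slc38a3 (-0.86, adjusted p = 0.00797), 25% in all. Pck2 was not called without ZT0 mouse 1 (adjusted p = 0.0523) or within batches (0.106), and Slc38a3 not within batches (0.0907). Without ZT0 mouse 3 or ZT12 mouse 1, 2 fell. In glycolysis 3 of 19 genes rose and 4 fell (36.8%), and 2 fell within batches. Pfkfb3 rose by 0.60 (adjusted p = 2.24e-05) and Pkm fell (-0.28, adjusted p = 5.31e-04). Of 13 polyamine genes 4 rose (30.8%), among them Paox (0.81, adjusted p = 7.79e-05), and 1 rose within batches. None of the 13 fell in the fit reported, and 1 did without ZT12 mouse 2.

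Of 30 growth factor and insulin signalling genes 8 rose and 3 fell (36.7% against 19.6% of all genes), with Igfbp4 at 321, 283, 303, 282 and 363 CPM at ZT0 and 572, 584, 555, 565 and 541 CPM at ZT12 (0.94 ± 0.08 (SE), adjusted p = 8.29e-14), Foxo3 up by 0.49 (adjusted p = 5.44e-06) and Igfbp5 down (-0.45, adjusted p = 1.04e-05). Without ZT0 mouse 2 or ZT12 mouse 4, 4 and 5 of these rose, and within batches 4 did. Of 28 cell cycle and p53 genes 5 rose and 1 fell, Cdkn1a, which makes 21.4% and is near the share of all genes, and Ccnd1 was among those higher (0.54, adjusted p = 8.35e-05), as was Wee1, a kinase of the cell cycle under clock control, from 16.2 ± 2.66 CPM at ZT0 to 37.1 ± 2.86 CPM at ZT12 (SD, n = 5 each, 1.15, adjusted p = 2.61e-10). Of 36 autophagy and lysosome genes 9 rose and 2 fell (30.6%), Wipi1 (0.53, adjusted p = 3.08e-06) and Ulk1 (0.37, adjusted p = 2.52e-05) among those higher, and the number higher was 5 without ZT0 mouse 2 and 5 without ZT12 mouse 4, and 3 within batches. The 2 that fell, Sqstm1 (-0.14, adjusted p = 0.035) and Atg5 (-0.18, adjusted p = 0.0218), lost their calls when any of 6 and any of 5 mice, respectively, was left out in turn. Of 33 nuclear receptors and coregulators 6 rose and 3 fell (27.3%), the latter Ppard, Thra (-0.50, adjusted p = 3.11e-08) and Nr2f6 (-0.51, adjusted p = 1.80e-07). Without ZT0 mouse 2, 3 rose, and without ZT0 mouse 5, 5 fell.

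Of 31 extracellular matrix and protease genes 10 fell, 2 rose and 19 did not pass (median -0.26), against 9.48% lower and 10.1% higher of all genes. Col4a1, a basement membrane collagen, had 182, 149, 148, 148 and 147 CPM at ZT0 and 76.5, 113, 95.9, 82.9 and 91.8 CPM at ZT12 (-0.62 ± 0.07 (SE), adjusted p = 4.23e-09), Col18a1 fell by 0.60 on the log2 scale and Mmp15 from 4.88 ± 0.841 CPM at ZT0 to 1.74 ± 0.367 CPM at ZT12 (-1.38, adjusted p = 9.33e-09). Fibroblast and pericyte markers (2 of 4 lower) summed to 129 to 188 CPM at ZT0 and 80.2 to 149 CPM at ZT12, smooth muscle markers (2 of 4 lower) to 94.5 to 112 CPM at ZT0 and 48 to 95.3 CPM at ZT12 and podocyte markers (2 of 4 lower) to the values given above, while the 5 endothelial markers had log2 changes from -0.08 to 0.01 and summed to 370.3 to 398 CPM at ZT0 and 356 to 392 CPM at ZT12. Col1a1 is in both the matrix list and the fibroblast list. Their part in the matrix result was not tested. In bulk samples, fewer cells of a type and less RNA per cell cannot be told apart. Among tubular markers, 2 of 4 for intercalated cells and 1 of 4 for the thick ascending limb were also lower. For principal cells of the collecting duct 1 of 4 was lower and 1 higher, and of 3 for the distal convoluted tubule none passed. The 5 proximal tubule markers had changes from -0.17 to 0.06 and summed to 9027 to 10808 CPM at ZT0 and 8942 to 9672 CPM at ZT12, and the 5 macrophage markers had changes from -0.39 to -0.03 (169 to 205 CPM at ZT0 and 145 to 197 CPM at ZT12). Lama5, one of the 2 that rose (0.23, adjusted p = 0.0479), lost its call when any of 7 mice was left out in turn, and 0 to 2 genes of the list were higher when 1 mouse was left out and 0 within batches.

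Of 79 cytoplasmic ribosomal proteins 1 passed, Rpl3 (0.21, adjusted p = 0.00639), against 19.6% of all genes, and without ZT0 mouse 3 or ZT0 mouse 4 there was also 1 lower. Of 81 nuclear subunits of oxidative phosphorylation 2 fell (Ndufb2 and Ndufv3, -0.43, adjusted p = 0.00161 and -0.22, adjusted p = 0.0217). Ndufv3 lost its call without ZT0 mouse 1 or ZT0 mouse 3, and the number lower was 1 without ZT0 mouse 1 and 4 without ZT12 mouse 1. Of 74 mitochondrial ribosomal proteins 2 rose and 7 fell, of which 3 fell without ZT0 mouse 2 and 3 without ZT12 mouse 5. The 2 that rose became 1 without ZT0 mouse 4, and without ZT12 mouse 1 neither was called. Of 37 proteasome subunits 4 fell, led by Psmd11 (-0.44, adjusted p = 1.31e-10), and 2 fell when ZT0 mouse 2, 3 or 5 or ZT12 mouse 1, 3 or 5 was left out. Of 7 measured mitochondrially encoded subunits none passed edgeR's test, DESeq2 or limma-trend, with 1 at an unadjusted p under 0.05. For 10 renin-angiotensin genes none passed by these tools, again with 1 at an unadjusted p under 0.05. Of 27 interferon-inducible genes 1 passed, Rsad2 (-0.56, adjusted p = 3.22e-07), and of 16 complement genes 1 rose (C2, 0.63, adjusted p = 0.0075) and 1 fell (C1s1, -0.32, adjusted p = 0.0245). C1s1 lost its call when any of 5 mice was left out in turn, and leaving out each mouse gave 0 to 2 complement genes lower. Without ZT0 mouse 2, ZT0 mouse 3 or ZT12 mouse 3, 1 interferon-inducible gene was higher. Within batches Rpl3, Ndufb2, Ndufv3, C2 and C1s1 were not called (adjusted p = 0.0925, 0.0777, 0.102, 0.112 and 0.112), none of the mitochondrial ribosomal proteins was, and 1 proteasome subunit fell.

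**Figure D4:**
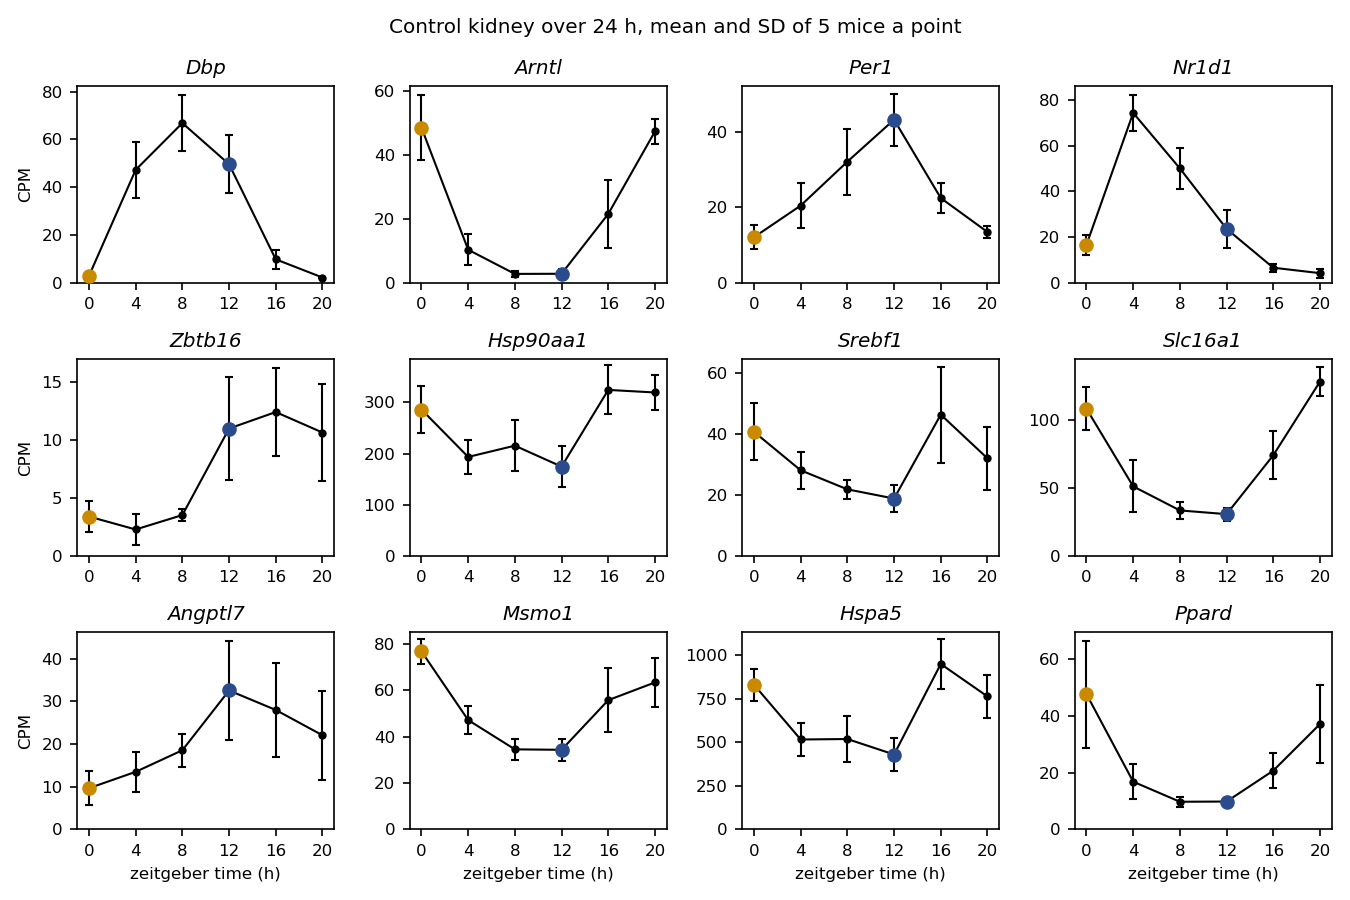
CPM (y axis, from 0) of 12 genes in control kidney against zeitgeber time in hours, as mean and SD of 5 mice a point, with ZT0 in orange and ZT12 in blue. Arntl is at 48.4 CPM at ZT0 and 2.77 CPM at ZT12, Nr1d1 peaks at ZT4 between the 2 groups compared, and Msmo1 is at 76.8 CPM at ZT0 and 34.3 CPM at ZT12.

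The same contrast in cKOt mice, whose tubular cells lack functional Bmal1, shares no sample with this one. There 1749 genes (11.3%) passed, 798 higher and 951 lower at ZT12. Of the genes called in control mice 877 also passed in cKOt mice in the same direction and 17 in the opposite one. A call in 1 genotype and not the other is no test of a difference, so the change in cKOt mice minus that in control mice was tested, and it passed for 429 genes (2.76%). Of these 362 were called in control mice. Their cKOt change had the opposite sign for 216, the same sign and a smaller size for 145, and the same sign and a larger size for 1. Signs were counted whether or not the cKOt change passed, and only 17 genes passed in both genotypes in opposite directions. The 362 genes were picked partly for their control change, which the tested difference subtracts. Smaller or opposite cKOt changes were therefore favoured in advance.

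Arntl itself lay at 24.4 ± 1.57 CPM at ZT0 and 17.4 ± 2.01 CPM at ZT12 (SD, n = 5 each) in cKOt mice, and its change of -0.54 there differed from the control change by 3.63 ± 0.32 (SE), adjusted p = 1.03e-11. Npas2 differed by 4.41 ± 0.38 (SE), adjusted p = 8.92e-12, Dtx4 by 1.95 ± 0.24 (SE), adjusted p = 1.31e-07 and Slc16a1 by 1.73 ± 0.22 (SE), adjusted p = 2.39e-07. In cKOt mice these 3 had log2 changes of 0.10, 0.06 and -0.13. Dbp still rose in cKOt mice, by 2.61, less than in controls (-1.66 ± 0.34 (SE), adjusted p = 0.0012). Nr1d1 rose more in cKOt mice, by 2.10 (1.49 ± 0.34 (SE), adjusted p = 0.00564). The 8 genes of at least 2 CPM outside the clock with the lowest adjusted p for this difference were Rhobtb1, Ypel2, Clpx, Jpt2, AC117816.1, Npnt, Upp2 and Ppm1h. Rhobtb1 had 111, 88.5, 111, 101 and 96.8 CPM at ZT0 and 47.2, 47.6, 63.4, 43.9 and 42.8 CPM at ZT12 in controls (-1.05 ± 0.07 (SE), adjusted p = 2.14e-16) and a log2 change of -0.03 in cKOt mice. Npnt, a basement membrane protein, fell in controls from 253 ± 9.33 CPM at ZT0 to 122 ± 18.7 CPM at ZT12 (-1.05, adjusted p = 5.12e-16) and changed by -0.13 in cKOt mice, a difference of 0.92 ± 0.10 (SE), adjusted p = 1.39e-08. Clpx, a mitochondrial protease component, fell from 270.4 ± 20.2 CPM at ZT0 to 147 ± 8.25 CPM at ZT12 in controls and differed between genotypes by 1.18 ± 0.13 (SE), adjusted p = 2.08e-09.

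For other genes and groups the values of both genotypes are set side by side. Heat shock genes called lower numbered 16 of 20 in cKOt mice and 13 in controls, and Hsp90aa1 changed by -0.57 in cKOt mice, a difference of 0.18 ± 0.17 (SE), adjusted p = 0.725. ER genes called lower numbered 18 of 32 and 17, with 1 of the list passing the test of the genotype difference, Herpud1 (-0.48 ± 0.12 (SE), adjusted p = 0.0179). Sdf2l1 changed by -1.81 in cKOt mice and -1.66 in controls (difference -0.15 ± 0.35 (SE), adjusted p = 0.907), Zbtb16 by 1.92 and 1.77 (0.15 ± 0.53 (SE), adjusted p = 0.946), and Hif3a by 2.04 and 2.14 (-0.09 ± 0.39 (SE), adjusted p = 0.953). Cholesterol genes called lower numbered 9 of 24 in cKOt mice and 16 in controls, with 1 of the list passing that test, and for glucocorticoid-responsive genes called higher the numbers were 4 of 19 and 10, with 3 passing it. Calls were also fewer over all 15546 genes in cKOt mice, with 951 lower and 798 higher, against 1474 lower and 1566 higher in controls.

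**Figure D5:**
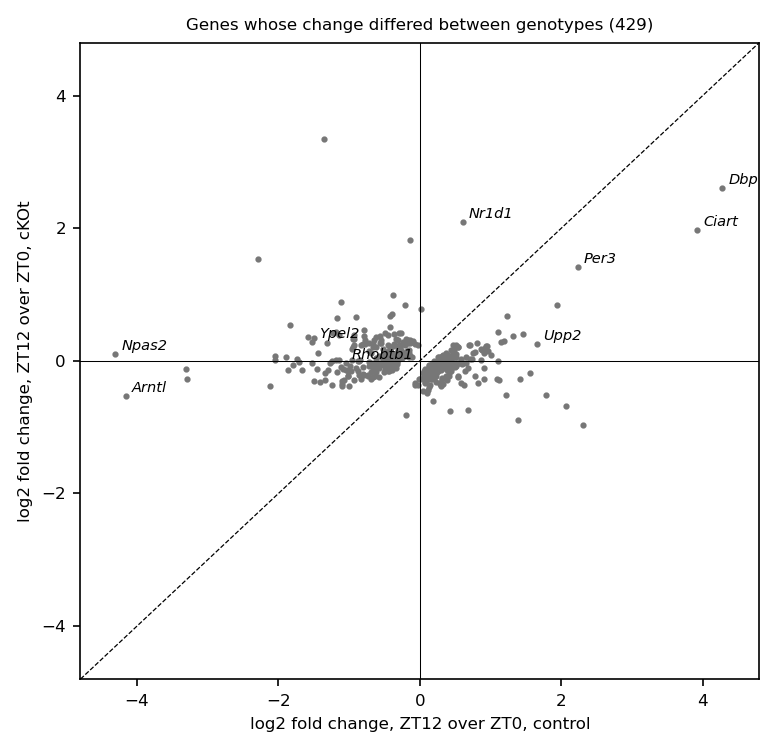
Log2 fold change of ZT12 over ZT0 in cKOt mice (y axis) against that in control mice (x axis) for the 429 genes whose change differed between genotypes, with the dashed line marking equal change. Arntl and Npas2 lie far left near a cKOt change of 0, Dbp, Ciart and Per3 lie below the line, and Nr1d1 lies above it.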

How the data were processed

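RNA was sequenced from control kidneys at ZT0 and ZT12 (5 mice each). The authors prepared stranded poly(A) libraries, and per the labels trimmed with cutadapt 1.8, aligned with STAR 2.5.3a and counted with HTSeq 0.9.1 on GRCm38. The deposited values are whole read counts per Ensembl gene, without normalization. Lines of the counting program that are not genes were left out (7.35% to 9.01% of counts outside features, 1.02% to 1.19% ambiguous). None of 20 pairs of replicates was identical. Symbols and positions come from GENCODE M21. The filter was 1 CPM or more in any sample (15546, 99.9% of counts). edgeR 4.0.16 in R 4.3.3 was fitted to all 60 samples with TMM, 12 groups and 2 RUVs factors computed from logCPM (prior count 2), with a quasi-likelihood test of ZT12 against ZT0 and of the genotype difference. Log2 fold changes carry their standard error. Alternatives used DESeq2 1.42.0, limma 3.58.1, other filters, covariates and samples. Named genes are all clock genes, the 12 largest changes each way (at least 2 CPM, groups apart, no predicted genes or pseudogenes), up to 3 per direction and group by adjusted p, and 8 by genotype difference. The genes, lists and rules were chosen with earlier results of these data known. A few genes that the rule names are not reported here. The code was tested on simulated data with known changes. Batches were read from the study's sample sheet, which does not say what they are. Mice are separate animals, and counting depth limits transcripts near 1 CPM.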

Additional observations from a re-analysis of the deposited data

Results flagged for a closer look

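The ZT12 minus ZT0 change differed between genotypes for 51 of the 170 named genes by edgeR's test of the difference, against 2.76% of all genes. The adjusted p of the 51 ranged from 8.92e-12 to 0.0495. The 2 shares cannot be compared directly, since 8 genes were named by this same test. The others were named as clock genes or for their change in control mice. The difference in log2 change, cKOt minus control, was above 0 for 28 of the 51 genes. It was Arntl 3.63, Npas2 4.41, Nr1d1 1.49, Nfil3 2.06, Ppard 1.74, Dtx4 1.95, Slc16a1 1.73, Stra6l 1.49, Ypel2 1.8 and Ier5 0.87. Further values were Cdkn1a 1.85, Pdk4 1.55, Acot1 1.65, Etfdh 0.31, Cyp4a10 1.57, Srebf1 0.64, Scd2 0.56, Avpr1a 1.34, Abcg2 0.21 and Nt5e 1.16. Further values were Thra 0.46, Psmd11 0.39, Rhobtb1 1.02, Clpx 1.18, Jpt2 0.82, AC117816.1 0.62, Npnt 0.92 and Ppm1h 0.79. It was below 0 for 23 genes. The values were Per2 -1.69, Per3 -0.82, Cry2 -0.94, Ciart -1.95, Dbp -1.66, Tef -1.05, Hlf -0.62, Mthfd1l -1.09, Angptl7 -2.30 and Upp2 -1.40. The next values were Cyp2a5 -1.73, Usp2 -0.88, Tsc22d3 -0.92, Fabp3 -0.39, Atp1b1 -0.24, Prss8 -0.41, Aqp11 -0.38, Slc9a3r1 -0.27, Por -0.56 and Nampt -0.39. The next values were Herpud1 -0.48, Wee1 -0.86 and Igfbp4 -0.72. Angptl7 was low in cKOt mice, at 1.91 CPM at ZT0 and 1.18 CPM at ZT12, against 9.6 and 32.6 CPM in controls. Cyp2a5 lay at 6.6 CPM at ZT0 and 5.33 CPM at ZT12 in cKOt mice, against 71.7 and 200 CPM in controls. These differences were found with the same fit as the changes in the report, and every one of the 5 mice of each group entered. No cause was tested.

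In some groups 1 mouse stood apart from the other 4, with a gap above 0.71 of the range of the 5 values. About 1 in 20 groups would pass this limit by chance. For ZT0 mouse 1 the values in CPM were Arrdc2 10.0 (highest, others 5.63 to 6.63), Slc3a2 189 (highest, others 147 to 158), Col4a1 182 (highest, others 147 to 149), Fgf1 426 (highest, others 370.3 to 386). For ZT0 mouse 3 the values in CPM were Atf3 3.99 (highest, others 1.81 to 2.32), Cyp27b1 8.15 (highest, others 2.32 to 3.87), Fech 216 (highest, others 183 to 189.7). For ZT0 mouse 4 the values in CPM were Acot1 58.8 (highest, others 46.1 to 48.9). For ZT0 mouse 5 the values in CPM were Bhlhe41 5.27 (highest, others 1.99 to 2.49), Ciart 2.61 (highest, others 0.939 to 1.35), Dbp 5.56 (highest, others 1.97 to 2.32), Cirbp 21.4 (highest, others 16 to 17.5), Slc22a5 310.0 (highest, others 242 to 260.1). For ZT12 mouse 1 the values in CPM were Aqp3 65.3 (highest, others 52.1 to 55.8), Cyp2u1 4.94 (highest, others 3.44 to 3.82). For ZT12 mouse 2 the values in CPM were Per2 126 (highest, others 89.2 to 98.5), Hsp90aa1 246 (highest, others 146 to 167), Hmox1 40.7 (highest, others 21.2 to 26.8), Sqstm1 425 (highest, others 388 to 398), Ndufb2 13.9 (highest, others 10.7 to 11.6). For ZT12 mouse 3 the values in CPM were Arntl 5.51 (highest, others 1.93 to 2.32), Dtx4 20.6 (highest, others 6.68 to 10.2), Rhobtb1 63.4 (highest, others 42.8 to 47.6). For ZT12 mouse 4 the values in CPM were Srebf2 38.4 (lowest, others 46.5 to 49.2), Fech 249.8 (highest, others 228 to 232), Map1lc3b 117 (lowest, others 123 to 125), Col18a1 37.8 (lowest, others 56.2 to 60.3), Psmd6 94.1 (highest, others 78.6 to 82.2).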

How the results depend on the processing

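With size factors from DESeq2, its Wald test, limma-trend, filterByExpr, 1 RUVs factor and the 30 control samples alone, 2794 to 3102 genes passed, and 424, 504, 432, 416 and 380 for the genotype difference (which the control samples alone cannot give). Without a filter 2398 of 32924 genes passed (316 for the difference). With the batch in place of RUVs the numbers were 2247 and 232, and without RUVs 2050 (1096 higher, 954 lower) and 221. Fitting the 10 samples alone without RUVs gave 1807 (921 higher, 886 lower), and the 20 samples gave 178 for the difference. Within the 4 shared batches 1381 passed (689 higher, 692 lower), with 8 mice fitted alone without RUVs, and 1308 of these were among the 3040. With an added fold change of at least 1.5, 687 passed (358 higher, 329 lower).

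The replicate number as a block gave 3021 genes (1547 higher, 1474 lower) and 415, and same-numbered mice did not deviate together (mean correlation 0.0136, range -0.138 to 0.131), so the numbers do not pair them. None of these counts moved by over 1.5 times with the block.

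Leaving out each mouse gave 2505 to 3109 genes (1260 to 1624 higher, 1245 to 1485 lower) and 302 to 459 for the difference. Without ZT0 mouse 5 and ZT12 mouse 3, chosen after seeing the data, it was 2674 (1388 higher, 1286 lower) and 396. In the fits above, genes shared with the 3040 called kept their direction.

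Of 170 named genes, 168 passed in the fit reported, 110 of these passed in every alternative that tested them, and 58 lost their call in at least 1. None of the called genes changed direction. Bhlhe40, which did not pass, went from -0.052 to 0.026 within batches and 0.023 without ZT0 mouse 5 and ZT12 mouse 3, and lay between -0.162 and 0.051 when 1 mouse was left out, above 0 without ZT0 mouse 3 (0.051) and without ZT0 mouse 5 (0.012). Without ZT0 mouse 5 and ZT12 mouse 3, fatty acid oxidation genes called lower went from 5 to 1 and glucocorticoid-responsive genes called higher from 10 to 6, and the cause was not tested. The share of higher against lower calls moved by under 10 percentage points in every alternative. A gene at 1 CPM rests on few reads at this depth, so its changes are the least precise.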
